A study of Mus musculus with 20 samples.

Results

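The response of sensory ganglia to a cut nerve was described in control mice, across all genes measured by mRNA sequencing. Libraries were taken as members when their names carried the control genotype without the Cre mark, which gave 10 of the 20 libraries of the series: 5 from dorsal root ganglia (DRG) on the lesioned side (ipsilateral) and 5 from the opposite side (contralateral) of the same 5 mice, H62, H63, H65, H96 and H97. The mice were males with 1 or 2 floxed alleles of Ahr, the aryl hydrocarbon receptor gene, per the protocol text, and no Cre recombinase. Their sample titles say Wildtype, while the genotype field and the library names carry FF or ff, which also stands in the names of the knockout libraries. They received tamoxifen at 100 mg/kg on 5 consecutive days from 17 weeks of age, as the knockout mice did. After a wait of 4 weeks the sciatic nerve was transected, and ganglia of lumbar levels 4 to 6 were collected 1 day after the lesion, per the protocol text. The treatment field of the labels instead names a spinal cord injury, and the protocol was followed. Whether ff in the control names marks 2 floxed alleles or also covers mice with 1 is not stated, and the contralateral ganglia came from operated animals, not from untouched ones. The remaining 10 libraries came from 5 conditional knockout mice (cKO), with both Ahr alleles floxed and a Cre recombinase that tamoxifen switches on, with EYFP, driven by Thy1.

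Dorsal root ganglia hold the cell bodies of the sensory neurons for touch, temperature, pain and body position, wrapped by satellite glia and mixed with Schwann cells, macrophages, fibroblasts and vessels. When the peripheral axon is cut, signals travel back to the cell body, stress kinases and transcription factors such as JUN and ATF3 act on chromatin, and the neuron shifts from transmission toward growth and survival. Genes of this shift, among them Atf3, Sprr1a, Sox11 and Gal, are the usual markers of axotomy, and only part of the lumbar neurons send an axon into the sciatic nerve.

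Values are TMM-normalised CPM (counts per M, mega), in which each count is scaled to the effective depth of its library. CPM are not divided by gene length, so they are compared between samples and not between genes. A gene was called when edgeR's quasi-likelihood test gave a Benjamini-Hochberg adjusted p under 0.05 over all 28564 genes tested, and all adjusted p-values given here are of that kind. Fold changes are on the log2 scale, ipsilateral against contralateral, so 1 is a doubling and -1 a halving. Total counts were 82.2 to 117.4 M in the contralateral and 79.1 to 103.1 M in the ipsilateral control libraries, and mitochondrial genes took 0.916% to 1.2% of them. The contralateral library of mouse H62 stood apart from the rest of its group: it lay at 47.3 on the second principal component (15% of the variance) against -32.5 to 13.6 for the other 4, and its summed muscle and neutrophil markers were 502 and 169 CPM against at most 227 and 63.4 CPM in the others. Values without this mouse are given below. The first component (35.6%) placed all 5 ipsilateral libraries on one side and all 5 contralateral libraries on the other.

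In the control ganglia 8540 of 28564 genes were called (29.9%), 3956 of them higher on the lesioned side (13.8%) and 4584 lower (16.0%). The response was broad and mostly small: 7740 of the called genes (90.6%) changed by less than 2-fold. Large changes went upward, with 697 called genes at least 2-fold higher (2.44%) and 103 at least 2-fold lower (0.361%). At 4-fold or more there were 252 higher and 3 lower genes. The median log2 fold change was 0.353 among genes called higher and -0.27 among genes called lower, and over all genes tested it was -0.005 (quartiles -0.164 and 0.163). In 6732 genes (23.6%) the CPM of the groups did not overlap. In bulk tissue, fewer cells of a type and less RNA per cell cannot be told apart. Without mouse H62, 3536 genes were called higher and 4168 lower. Leaving out any other mouse turned the surplus of lower genes into one of higher genes: there were 3578 higher and 3254 lower without H63, 3680 and 3638 without H65, 3560 and 3350 without H96, and 3669 and 3234 without H97. In the control libraries alone 4566 were higher and 4235 lower. The counts of the gene lists below are set beside the 13.8% of all genes called higher and the 16.0% called lower. These shares are not matched for abundance and are low for well-counted lists. The median was 4.3 CPM over all tested genes and 22.3 CPM over the genes of the function lists. Of 8829 genes at 10 to 100 CPM 1760 were called higher and 2241 lower. Of 2541 genes at 100 CPM or more 565 were called higher and 572 lower.

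The size classes held different shares of higher and lower genes. Among genes called higher, 1384 had a log2 fold change under 0.25, 1086 of 0.25 to 0.5, 789 of 0.5 to 1, 445 of 1 to 2, 117 of 2 to 3 and 135 of 3 or more. Among genes called lower, the same classes held 2090, 1645, 746, 100, 2 and 1 genes. Most called genes moved in the same direction in all 5 mice, from 92.4% in the smallest to 99.3% in the largest class of higher genes, and in 89.9%, 93.3%, 93.0% and 83.0% of the 4 smallest classes of lower genes in order of size. The cKO mice gave the same contrast in other animals, although their libraries shared the filter and the estimate of the spread with the fit that set the classes. There 31.3% of genes were called, 16.2% higher and 15.1% lower. Of the higher classes, 80.1% to 82.9% of the genes up to a log2 fold change of 2 were called higher again in the cKO mice, and 95.7% and 99.3% of the classes above it. Of the lower classes, 53%, 72.2% and 69.2% were called lower again in the 3 classes under 2-fold, and 34.0% in the class of 1 to 2. The sign alone was the same in the cKO mice for 1998 of 2090, 1625 of 1645, 730 of 746 and 87 of 100 genes of these classes.

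**Figure D1:**
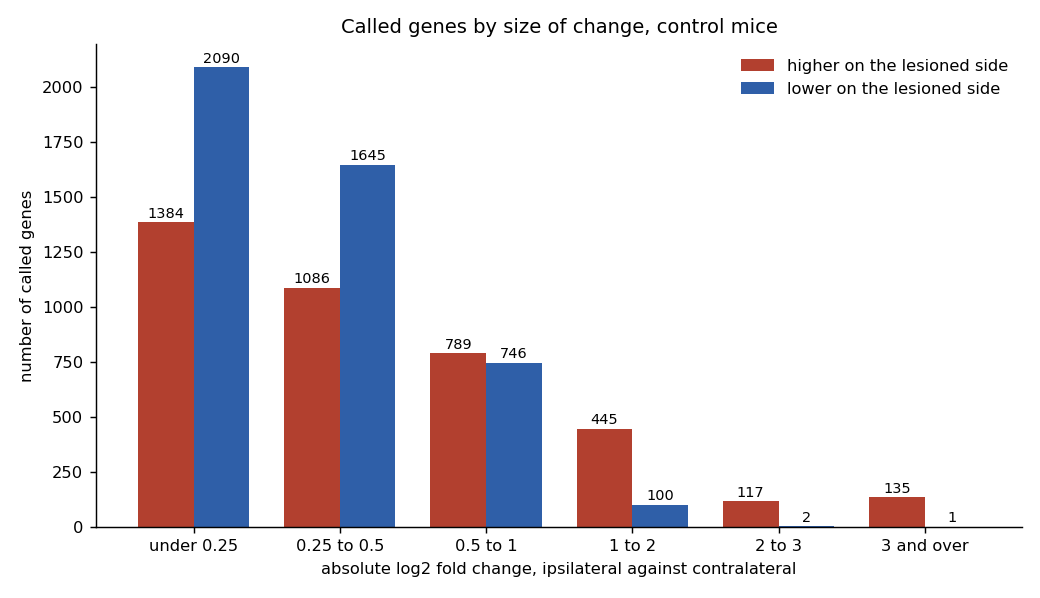
Bars give the number of called genes (vertical axis) in each class of absolute log2 fold change (horizontal axis), higher in red and lower in blue, from 5 ipsilateral and 5 contralateral control libraries. Lower genes outnumber higher genes in the smallest classes, 2090 to 1384 under 0.25, and higher genes outnumber lower genes from a log2 change of 0.5 upward.

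Among called genes, abundance and size of change ran in opposite directions. A poorly counted gene passes the threshold only when its change is large, so selection by the call shapes this relation. Of 9240 genes with a mean under 1 CPM 12% were called, against 28.9% of 7954 genes at 1 to 10 CPM, 45.3% of 8829 at 10 to 100 CPM and 44.7% of 2541 at 100 CPM or more. Changes of at least 2-fold made up 44.3% of the calls under 1 CPM and 1.5% of the calls at 100 CPM or more, where 17 genes were at least 2-fold higher and 0 were at least 2-fold lower. The classes of small change held the well-counted genes, with a median of 46.7 CPM in the smallest class of higher genes and 37.9 CPM in the smallest class of lower genes. The class of 3 or more had a median of 0.254 CPM, and 104 of its 135 genes were under 1 CPM. In that class 14 genes had an ordinary gene name and at least 5 CPM on the lesioned side.

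**Figure D2:**
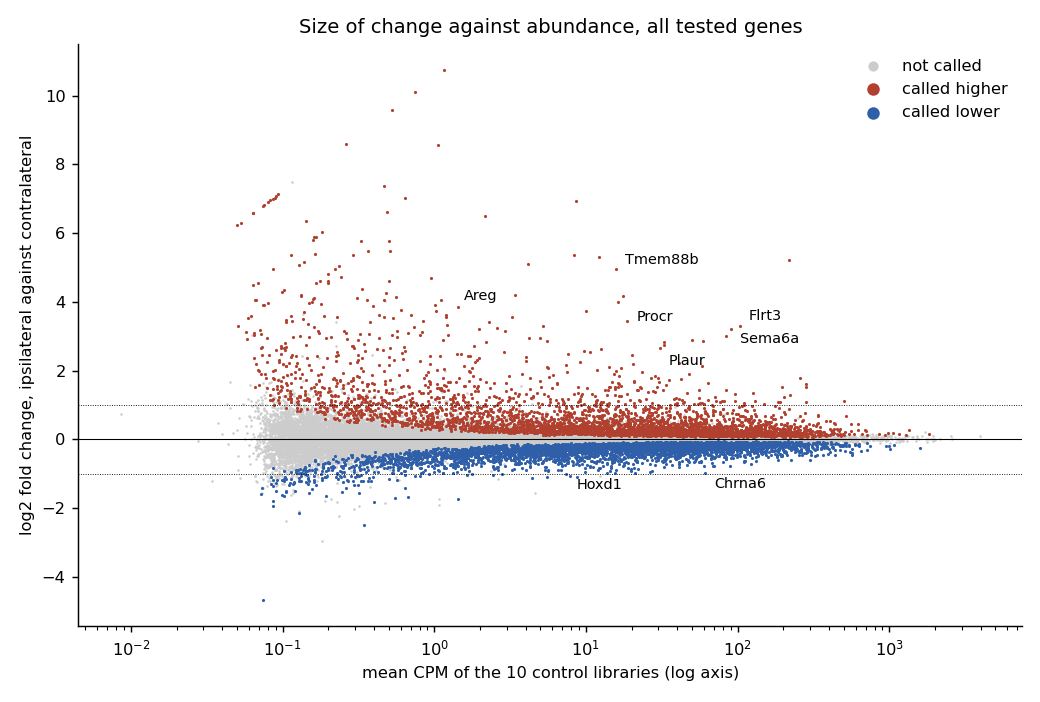
Each point is a gene, with the mean CPM of the 10 control libraries on a log axis (horizontal) and the log2 fold change (vertical), called genes in red or blue and others in grey, with dotted lines at 2-fold. Flrt3 and Sema6a stand at log2 changes of 3.30 and 3.21 with over 100 CPM on the lesioned side, while Chrna6 and Hoxd1 mark the lower edge of the well-counted genes near a halving.

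Beyond the usual axotomy markers, the 14 named genes with the highest log2 fold changes included Tmem88b, Areg, Procr, Flrt3, Rin1, Sema6a, Igfbp3, Smim3, Plaur, Timp1, Steap1, Adam8 and Gfap. Their log2 fold changes ran from 4.95 for Tmem88b, a membrane protein that went from 0.991 to 30.7 CPM, down to 2.38 for Gfap. RefSeq promoter windows (GRCm38.p6, from 250 bases before to 50 after a start) were at hand for 11 of them. Each window was searched on both strands for TGACTCA and TGACGTCA, letters known to be bound by factors of the JUN, FOS, ATF and CREB families, and 3 of the 11 windows held a match. They are shown because the transcripts of JUN and ATF3 rose in the same ganglia, with the match in capitals. That of Areg (chr5:91139349-91139648, plus strand) begins 61 bases before the start, that of Procr (chr2:155750967-155751266, plus strand) 154 bases before it, and that of Plaur (chr7:24462233-24462532, plus strand) 69 bases before it.
Areg: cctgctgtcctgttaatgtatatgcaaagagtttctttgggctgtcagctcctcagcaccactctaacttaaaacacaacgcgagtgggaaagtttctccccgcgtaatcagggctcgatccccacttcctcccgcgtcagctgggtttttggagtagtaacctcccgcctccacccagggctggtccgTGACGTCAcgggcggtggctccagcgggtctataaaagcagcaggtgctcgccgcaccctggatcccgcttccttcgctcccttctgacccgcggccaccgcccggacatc
Procr: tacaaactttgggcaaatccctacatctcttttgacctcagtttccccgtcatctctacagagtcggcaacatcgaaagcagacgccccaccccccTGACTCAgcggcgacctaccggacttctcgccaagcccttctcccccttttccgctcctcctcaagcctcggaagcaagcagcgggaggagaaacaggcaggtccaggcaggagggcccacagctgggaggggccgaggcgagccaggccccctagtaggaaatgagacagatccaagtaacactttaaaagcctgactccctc
Plaur: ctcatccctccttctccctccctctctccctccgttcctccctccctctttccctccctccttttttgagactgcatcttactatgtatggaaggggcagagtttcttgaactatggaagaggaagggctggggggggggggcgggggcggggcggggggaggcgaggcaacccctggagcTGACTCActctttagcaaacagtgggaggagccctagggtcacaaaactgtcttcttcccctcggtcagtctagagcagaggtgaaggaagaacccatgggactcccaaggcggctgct

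Across all tested genes with a window, 4.26% of 18140 windows held TGACTCA and 2.57% held TGACGTCA. Among genes called at least 2-fold higher the shares were 8.73% and 2.4% of 458 windows. The share with TGACTCA was 6.23% in the class of 1 to 2. In the class of 2 to 3 it was 15.9% (13 of 82 windows), and in that of 3 or more 11.3% (8 of 71 windows). The smallest class of higher genes had 5.0%, the class of 0.25 to 0.5 had 4.19% and that of 0.5 to 1 had 6.06%. For lower genes the same classes had 2.83%, 3.7% and 2.93%. The share was 4.31% among genes not called and 0 of 44 windows of genes at least 2-fold lower. A match is a run of letters and not a measured binding site, and the differences between these shares were not tested.

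Genes of the pericellular protease system were among the most raised. Plaur (ENSMUSG00000046223.11), the receptor of urokinase on the cell surface, went from 9.74, 8.04, 8.62, 8.25 and 7.58 CPM in the contralateral libraries of H62, H63, H65, H96 and H97 to 47.9, 53, 52.2, 58.4 and 52.7 CPM ipsilaterally, a log2 fold change of 2.64 (SE 0.11, adjusted p = 4.25e-13). Its groups were far apart and H62 had the smallest rise. Timp1, an inhibitor of matrix metalloproteases, rose by 2.58 from 2.77 ± 1.3 to 16.6 ± 1.14 CPM (SD, n = 5), and Adam8, a membrane metalloprotease of leukocytes and neurons, rose by 2.45 from 6.23 ± 0.78 to 34.1 ± 1.13 CPM. Of 66 matrix proteases and inhibitors tested, 17 were called higher, 6 lower and 43 neither. The lower ones were small in size, as in Adam5 (-0.73), Adamtsl2 (-0.33) and Mmp17 (-0.29), and the Adamtsl2 call was lost without H63, H65, H96 or H97.

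Surface and guidance proteins included Flrt3 and Sema6a. Flrt3 (ENSMUSG00000051379.13), a leucine-rich repeat membrane protein of adhesion and FGF signalling, had 20.8, 19.1, 17.9, 20.1 and 17.8 CPM contralaterally and 199, 182, 185, 199 and 178 CPM ipsilaterally. The groups were separated without overlap and the 5 mice rose alike, by 3.30 (SE 0.09, adjusted p = 2.28e-15). Sema6a (ENSMUSG00000019647.18), a transmembrane semaphorin that steers axons through plexins, had 17.5, 18, 18.2, 17.8 and 16.6 CPM contralaterally and 169, 167, 155, 167 and 157 CPM ipsilaterally. All 5 mice again rose by nearly the same amount, 3.21 (SE 0.09, adjusted p = 4.89e-15). Plxna4, a plexin receptor, rose by 0.91 from 131 to 245 CPM. Of 72 semaphorins, ephrins, plexins, netrins, slits and their receptors, 14 were higher and 14 lower (19.4% each), with a median of -0.005 that equals that of all genes. Sema6a was the 1 member called at least 2-fold higher, and 1 member under 1 CPM was called at least 2-fold lower. Among the better-counted lower members Efna3 (-0.55), Sema5b (-0.54) and Ntng1 (-0.54) fell most. The count of higher guidance genes was 9 without H96 and 22 with a block for mouse in the control libraries alone.

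Integrins, the receptors by which cells hold to the matrix, were higher in 8 and lower in 2 of 26 members. Itga7 (ENSMUSG00000025348.11), a laminin receptor subunit, had 121, 140, 143, 149 and 149 CPM contralaterally and 427, 462, 428, 425 and 400 CPM ipsilaterally, a rise of 1.61 (SE 0.07, adjusted p = 1.31e-12). H62 had the lowest contralateral value, and the groups lay far apart. Itga3 rose by 0.69 and Itga5 by 0.59, while Itga4 (-0.31) and Itgb6 (-0.58) fell. The Itga5 call was lost without H63, H65, H96 or H97. Cd44, the hyaluronan receptor, rose by 0.72 from 257 ± 3.64 to 423 ± 17.3 CPM (SD, n = 5). Collagens and laminins were higher in 6 of 55 (10.9%, under the 13.8% of all genes) and lower in 0, with a median of 0.23, and the counts became 18 and 1 with the block for mouse in the control libraries alone. Col16a1 doubled from 19.9 to 39.8 CPM, and Col6a5 (2.12) and Lamb3 (1.57) stayed under 3 CPM.

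**Figure D3:**
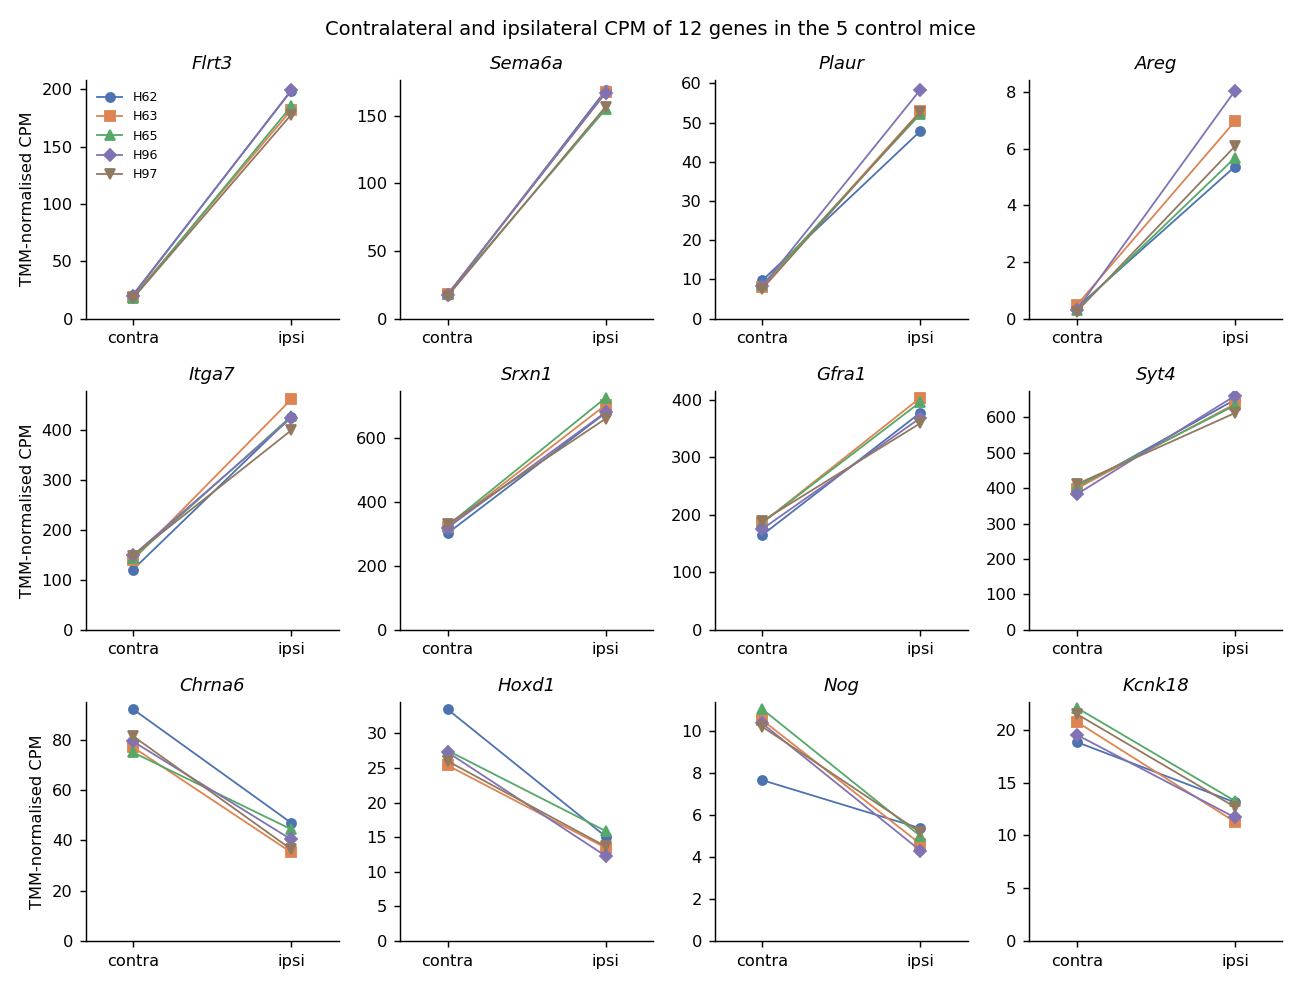
Each panel shows a gene, with its TMM-normalised CPM (vertical axis, from 0) in the contralateral and ipsilateral ganglia of each of the 5 control mice, joined by a line per mouse. Flrt3, Sema6a, Plaur, Areg, Itga7, Srxn1, Gfra1 and Syt4 rise in all 5 mice and Chrna6, Hoxd1, Nog and Kcnk18 fall in all 5. The same sign in 5 mice was a condition for naming genes by rank or size class, so it is no separate evidence for them. H62 shows the smallest fall of Nog, from 7.65 to 5.36 CPM.

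Of 217 ligands, antagonists, receptors and feedback inhibitors tested, 46 were higher and 35 lower (37.3% called, against 29.9% of all genes). The lower count was near the 16.0% of all genes called lower. Of the calls in this group, 30.9% were at least 2-fold, against 9.37% of all calls. Areg (ENSMUSG00000029378.6), the EGF receptor ligand amphiregulin, had 0.391, 0.478, 0.318, 0.307 and 0.249 CPM contralaterally and 5.37, 6.97, 5.68, 8.05 and 6.09 CPM ipsilaterally. The groups did not overlap and the rise was 4.21 (SE 0.17, adjusted p = 1.41e-13). Il6, a cytokine of the gp130 family, rose by 3.33 but reached only 2.23 CPM, and Csf1, which drives macrophage and microglial growth, rose by 2.13 from 21.7 to 94.9 CPM. Igfbp3, a carrier of insulin-like growth factors, rose by 2.87 from 14.3 ± 2.31 to 104 ± 7.03 CPM (SD, n = 5). Of 63 chemokines and interleukins, 8 were higher (12.7%, near the share of all genes) and 2 lower, 7 and 2 of them by at least 2-fold. The lower count was 1 without H62 or H96 and 0 when genes under a mean of 1 CPM were left out. Among the FGF, neurotrophin, GDNF, BMP and IGF ligands, 17 of 69 were higher and 18 lower. Fgf3 rose by 6.95 from 0.138 to 17.0 CPM and Inhba, an activin subunit, by 1.78. Ntf3, the ligand of the TRKC receptor, fell by 1.69 from 1.03 to 0.319 CPM and Btc, another EGF receptor ligand, by 0.66.

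Antagonists of BMP, activin and Wnt signals, inside and outside the cell, had 4 higher and 4 lower members of 22 (18.2% each, near the 13.8% and 16.0% of all genes). Fst, which binds activins, rose by 2.53 from 3.15 to 18.3 CPM. Nog (ENSMUSG00000048616.5), noggin, which binds BMPs, fell from 7.65, 10.5, 11, 10.4 and 10.2 CPM contralaterally to 5.36, 4.62, 4.99, 4.30 and 5.17 CPM ipsilaterally. All contralateral values exceeded all ipsilateral ones, and the log2 fold change was -1.03 (SE 0.10, adjusted p = 1.64e-07). Bambi (-0.58), a decoy receptor of the BMP pathway, Frzb (-0.33), a Wnt antagonist, and Bmp15 (-0.92), a BMP-type ligand, fell as well.

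Receptors of growth factors and gp130 cytokines, neurotrophic factors among them, changed by member, with 4 of 26 higher and 4 lower (15.4% each, near the shares of all genes). Gfra1 (ENSMUSG00000025089.16), the GDNF co-receptor, had 165, 186, 186, 175 and 189 CPM contralaterally and 378, 404, 396, 369 and 360 CPM ipsilaterally, a rise of 1.08 (SE 0.05, adjusted p = 1.01e-12). Gfra2 (ENSMUSG00000022103.11), the neurturin co-receptor, had 240, 219, 219, 210 and 230 CPM contralaterally and 160, 147, 154, 141 and 138 CPM ipsilaterally, a fall of 0.59 on the log2 scale (SE 0.09, adjusted p = 4.01e-05). Neither gene had overlapping groups. Gfra3, the artemin co-receptor, rose by 0.32, Kit fell by 0.37, Gfra4 fell by 0.20, and Ret, the shared signalling receptor of the GFRA proteins, rose by 0.18. The Ret call was lost without H62, H63 or H65 and under upper-quartile scaling, the Gfra3 call without H62 and the Gfra4 call without H96. The count of higher receptors was 1 without H62, 2 without H63 or H65 and 9 with the block for mouse in the control libraries alone, and that of lower ones was 2 without H96. Among MAP kinase phosphatases and feedback inhibitors 13 of 37 were higher and 7 lower, with Socs3 (1.66), a JAK-STAT inhibitor, and Cish (1.29) up, and Spry4 (-0.49) and Dusp5 (-0.34) down. The Dusp5 call was lost without H62.

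Among genes of electrical signalling more were called lower than higher, mostly by small amounts. Of 230 ion channel, ligand-gated receptor, transduction channel and Mrgpr genes, 100 were lower and 17 higher, with a median of -0.184. Of the 100, 70 had a log2 change smaller than 0.5 in size, 29 one of 0.5 to 1, and 1 a larger one. Sensory neuron markers were lower in 9 (40.9%) and higher in 0 of 22, with a median of -0.11. That list shares Scn9a, Scn10a, Scn11a, Trpv1, P2rx3 and Mrgprd with the electrical genes, so the 2 counts are not separate. Satellite glia markers were higher in 3 and lower in 1 of 9, with a median of 0.14. The part of cell makeup in the lower electrical genes was not tested. Potassium channel subunits, which set the resting potential and end the action potential, were lower in 44 (51.8%) and higher in 7 of 85, with a median of -0.24. The lower count was 35 without H97, 37 without H96, 40 without H63, 41 without H65 and 44 without H62. Kcnk18 (ENSMUSG00000040901.9), the leak channel TRESK, had 18.9, 20.8, 22.1, 19.5 and 21.5 CPM contralaterally and 13.1, 11.3, 13.3, 11.7 and 12.7 CPM ipsilaterally. The groups did not overlap, H62 had the lowest contralateral value, and the log2 fold change was -0.73 (SE 0.08, adjusted p = 5.16e-07). Kcnn2, a calcium-activated channel, fell by 0.75, and Kcnj3, a G-protein-gated inward rectifier, fell by 0.72. The exceptions included Kcnk16, a leak channel that rose by 2.35 to only 3.28 CPM, and Kcnmb4, an accessory subunit of BK channels, which rose by 0.36.

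Sodium and calcium channel subunits were lower in 16 (40.0%) and higher in 1 of 40, with 10 lower without H97 and 4 higher in the control libraries alone. Cacna1i, a low-threshold calcium channel, fell by 0.55 and Cacng2 by 0.53. Scn10a, the NaV1.8 channel of nociceptors and among the most counted genes, fell by 0.19, a call that was lost without H63, H65, H96 or H97. The higher member was Cacna2d1, the alpha2delta subunit bound by gabapentin, which rose by 0.47 from 283 to 392 CPM. Transduction channels of the TRP, Piezo, P2X and ASIC families were lower in 15 (38.5%) and higher in 5 of 39, with Trpc5 (-0.83), Trpc4 (-0.71) and Trpc6 (-0.70) lowest and P2rx5 (0.70) and Trpv2 (0.51) among the higher ones. Of the 5, 1 was at least 2-fold higher, and the highest log2 fold change in the list was 3.95. Mrgpr receptors, which mark itch and pain neurons, were lower in 6 (37.5%) and higher in 0 of 16 by edgeR. At an unadjusted p under 0.05, 1 was higher, and DESeq2 called 1 higher, the fit of the control libraries alone 2 and the fit without H65 1. Mrgprx1 fell by 0.67 and Mrgpra3 by 0.62, and reads of these near-identical copies can be split between members.

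Of 50 transmitter receptor subunits 19 were lower (38%) and 4 higher, with 12 lower without H97. Chrna6 (ENSMUSG00000031491.11), a nicotinic acetylcholine receptor subunit, had 92.2, 77, 75, 79.3 and 81.4 CPM contralaterally and 46.9, 35.2, 44.4, 40.3 and 36.4 CPM ipsilaterally. All 5 mice fell, by 0.76 in H65 to 1.16 in H97 on the log2 scale, the groups did not overlap, and the log2 fold change was -0.99 (SE 0.09, adjusted p = 5.35e-08). Chrnb3, the subunit that assembles with it, fell by 0.88. Chrna5 rose by 2.49 to 2.55 CPM and Gabra5, a GABA receptor subunit, by 0.94 from 8.54 to 16.4 CPM. Receptors of opioid peptides were among the 14 named genes with the lowest fold changes. Oprl1, the nociceptin receptor, fell by 0.92 from 25.9 ± 3.11 to 13.7 ± 0.83 CPM and Oprd1, the delta opioid receptor, by 0.91 from 20.6 ± 3.18 to 11 ± 1.13 CPM (SD, n = 5). Prokr1, a prokineticin receptor, fell by 0.93.

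Secretory genes moved by member. Synaptic vesicle and exocytosis genes were lower in 26 (37.1%) and higher in 8 of 70, and the lower count was 15 without H63 or H97. Syt4 (ENSMUSG00000024261.7), a synaptotagmin of dense-core and Golgi vesicles, had 400, 399, 405, 383 and 412 CPM contralaterally and 650, 638, 634, 661 and 613 CPM ipsilaterally, a rise of 0.68 (SE 0.04, adjusted p = 3.48e-11). Its groups were well separated. Syt7, a calcium sensor of slow release, fell by 0.48 from 375 to 268 CPM. Neuropeptide precursors and granins were higher in 10 and lower in 4 of 35, and 7 of the higher ones were at least 2-fold. Of the 35, 5 were also on the usual axotomy list, which was chosen for this response. Npy rose by 3.55, Adcyap1, the precursor of PACAP, by 1.77 from 118 to 402 CPM, and Vgf, a secreted neurotrophin-induced granin, by 1.53 from 146 to 422 CPM. Sst (-0.61), Chga (-0.28) and Chgb (-0.19) fell, but the Sst call was lost without H62, H63 or H97 and the Chgb call without H62, H63, H65 or H97. The count of lower peptides was 2 without H62, H63 or H97, and that of higher ones was 6 when genes under a mean of 1 CPM were left out.

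Of 375 genes that make, fold and degrade proteins, 116 were higher and 15 lower, and 98 of the higher ones had a log2 change under 0.5. The integrated stress response, in which phosphorylated eIF2 favours ATF4 and its amino acid and redox targets, had 22 of 30 genes higher (73.3%), 0 lower and a median of 0.43. With the block for mouse 1 was lower. Chac1 (ENSMUSG00000027313.4), a glutathione-degrading ATF4 target, had 7.43, 7.13, 7.39, 7.34 and 6.88 CPM contralaterally and 23.1, 26.5, 25.3, 27.8 and 25.9 CPM ipsilaterally. The groups were far apart and the log2 fold change was 1.83 (SE 0.09, adjusted p = 1.64e-12). Sesn2, a leucine sensor upstream of mTORC1, rose by 1.32 and Trib3, a pseudokinase, by 1.07. Aminoacyl-tRNA synthetases of the cytosol were higher in 13 (65%) and lower in 0 of 20, led by Cars (0.58), Aars (0.53) and Iars (0.51).

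Translation initiation factors were higher in 23 (41.8%) and lower in 3 of 55, with 1 lower without H63 or H65, 2 with the block for mouse and 6 on log2 FPKM. Eif4e (ENSMUSG00000028156.13), the cap-binding factor, had 95.9, 95.9, 100, 101 and 100 CPM contralaterally and 167, 158, 171, 164 and 156 CPM ipsilaterally, a rise of 0.72 (SE 0.04, adjusted p = 3.65e-11) with no overlap. Eif4ebp1, which restrains eIF4E, rose by 0.93 from 4.57 to 8.71 CPM, and Eif3b by 0.45. Ribosome biogenesis genes were higher in 18 (36.0%) and lower in 1 of 50, with Nop58 (0.39) and Rrp12 (0.36) among them. The ribosomal proteins themselves were higher in 6 (6.9%) and lower in 0 of 87, with a median of 0.07. That count was 38 in a fit of the control libraries alone, 29 with the block for mouse added, 4 under upper-quartile scaling and 3 without H97. Chaperones of the endoplasmic reticulum were higher in 8 and lower in 0 of 21, with Hspa5 (BiP) up by 0.43 from 284 to 384 CPM and Xbp1 by 0.40. Among heat shock chaperones 6 of 33 were higher (18.2%) and 2 lower. The higher count was 10 under RLE scaling and with limma-voom, and 11 with DESeq2 and with the block for mouse in the control libraries alone, and 1 was lower without H62, H63, H65 or H96. Hspb1, a small heat shock protein of axotomised neurons, rose by 0.87 from 155 ± 7.11 to 284 ± 10.8 CPM (SD, n = 5). Proteasome subunits were higher in 7 (17.9%) and lower in 1 of 39, and the count of higher ones was 11 without H63 and 2 under upper-quartile scaling. Lysosome and autophagy genes were split, 13 higher and 8 lower of 40, with 5 lower without H63 and 3 without H97, and with Sqstm1, the autophagy receptor p62, up by 0.28 from 622 to 756 CPM.

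**Figure D4:**
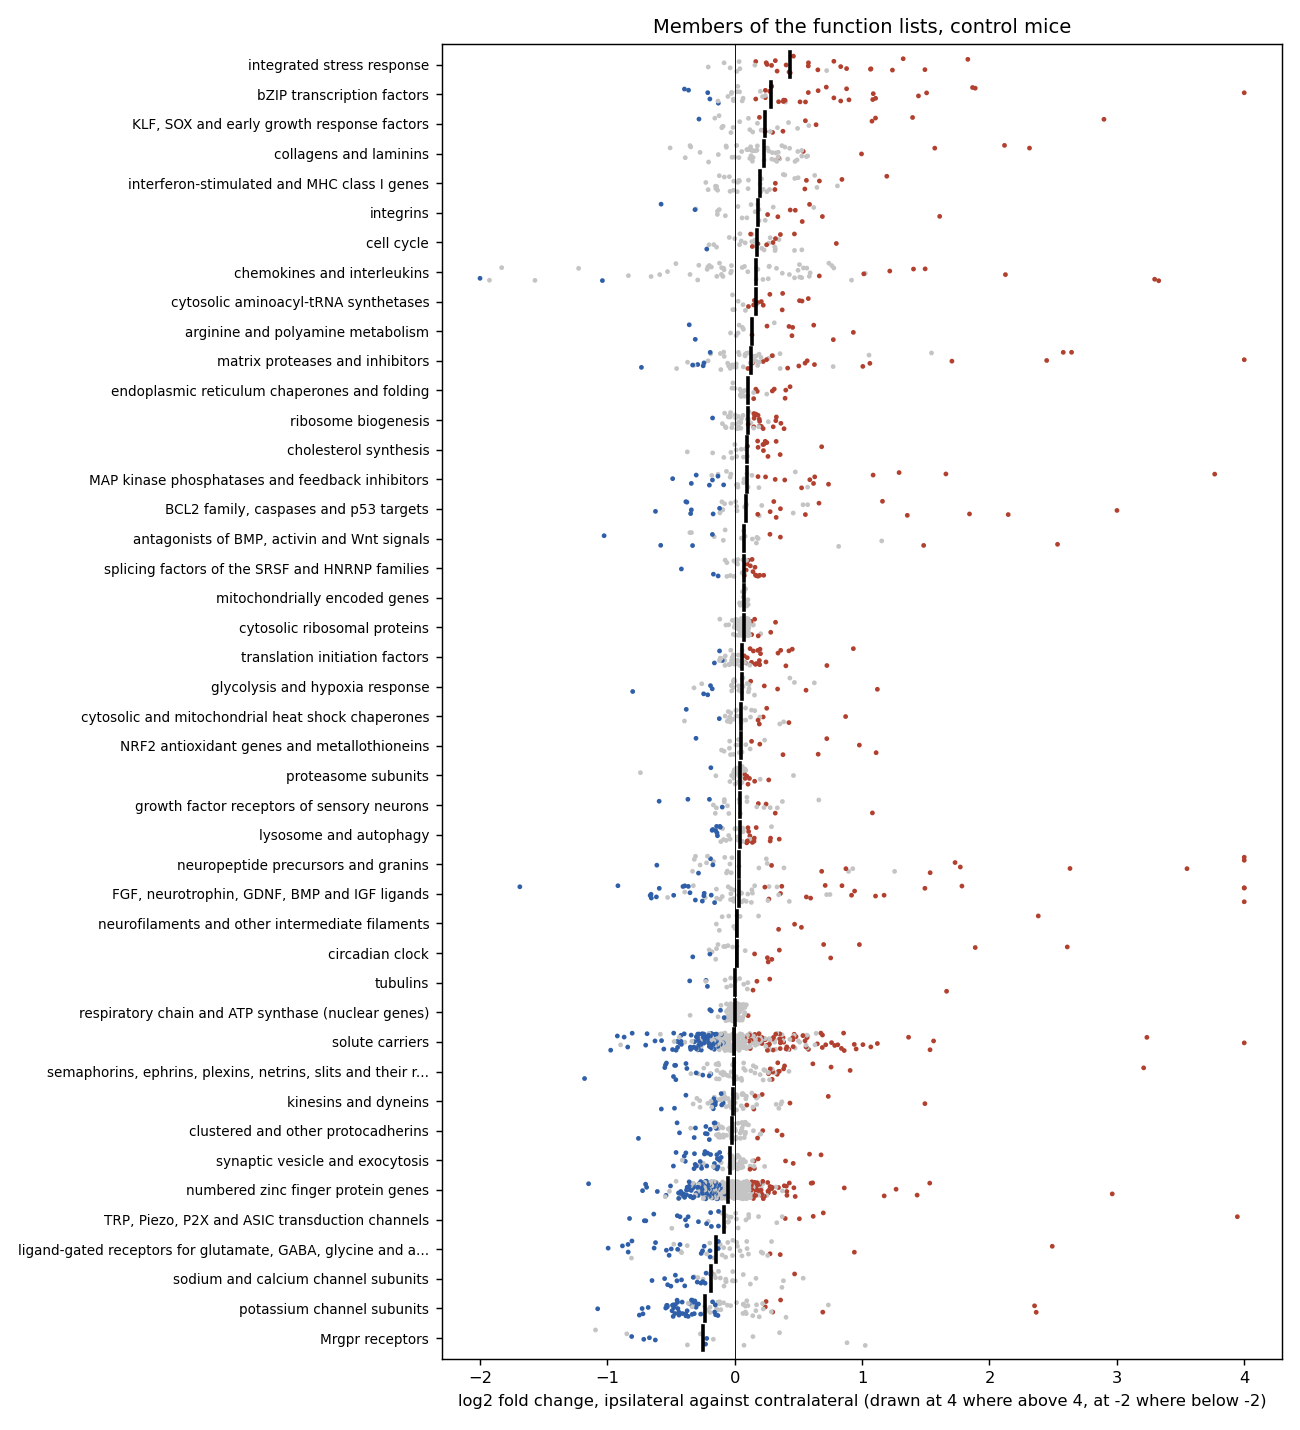
Each row is a list of genes, each point a tested member at its log2 fold change (horizontal axis), red where called higher, blue where called lower and grey where not called, and the black bar is the median of the list. Integrated stress response genes have the highest median shown among the protein lists (0.43), and potassium channels, Mrgpr receptors and sodium and calcium channels lie at the low end (-0.24, -0.25 and -0.19).

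Of 506 metabolic genes 92 were higher and 82 lower. Respiratory chain and ATP synthase genes of the nucleus had 1 higher and 4 lower of 86 with a median of 0.00, and 0 of 13 mitochondrially encoded genes were called by edgeR, DESeq2 or limma-voom. Their log2 fold changes were 0.04 to 0.11, and 0 had an unadjusted p under 0.05, but without H97 edgeR called 2 of them higher. Without H63, H96 or H97, 2 nuclear genes were lower, and without H97 2 were higher. Of 35 glycolysis and hypoxia response genes 5 were higher and 5 lower, with a median of 0.05, and the higher count was 8 without H97, under RLE scaling and with the block for mouse in all libraries, and 11 in the control libraries alone. The glucose transporters Slc2a1 and Slc2a3 rose by 1.12 and 0.56, while the glycolytic genes Pfkl (-0.21) and Pfkm (-0.19) and the kinase gene Pdk1 (-0.24) fell. The Pfkm call was lost without H97. Cholesterol synthesis genes were higher in 12 and lower in 0 of 24 by edgeR. At an unadjusted p under 0.05, 3 were lower, and 2 were called lower by limma-voom, under upper-quartile scaling and with the block for mouse. The highest was Hsd17b7, which rose by 0.68 from 101 to 162 CPM. In arginine and polyamine metabolism 8 of 17 were higher and 2 lower. Odc1 (ENSMUSG00000011179.9), ornithine decarboxylase, the entry enzyme of polyamine synthesis, had 67.3, 71.9, 68.6, 70.0 and 71.9 CPM contralaterally and 120, 138, 129, 145 and 135 CPM ipsilaterally. It rose in all 5 mice without overlap, by 0.93 (SE 0.06, adjusted p = 4.87e-11), and Azin1, which keeps ODC from its inhibitor antizyme, rose by 0.77. Srxn1 (ENSMUSG00000032802.9), sulfiredoxin, which repairs oxidised peroxiredoxins, had 302, 322, 326, 320 and 331 CPM contralaterally and 680, 705, 727, 682 and 662 CPM ipsilaterally, a rise of 1.11 (SE 0.04, adjusted p = 9.02e-14). The metallothionein genes Mt2 (0.98) and Mt1 (0.72) rose, and Gclc, of glutathione synthesis, fell by 0.30. Solute carriers as a whole were split, 62 higher (19.7%) and 70 lower (22.2%) of 315. Slc6a4, the serotonin transporter, rose by 3.24 from 0.493 to 4.70 CPM.

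Transcription regulators held both directions, 113 higher and 103 lower of 502. Among bZIP factors 27 of 47 were higher (57.4%) and 5 lower, with Atf3 up by 5.23 from 11.4 to 426 CPM, Nfil3 by 1.89 and Jun by 1.51. Without H63, H65, H96 or H97, 3 bZIP genes were lower. KLF, SOX and early growth response factors were higher in 12 and lower in 1 of 31, with Sox11 (2.90), Sox9 (1.40) and Klf6 (1.11) highest and Sox12 (-0.28) lower. Of the 31, 4 were also on the usual axotomy list, as were 2 of the 47 bZIP factors. The numbered zinc finger genes, most of them KRAB-type repressors, leaned the other way, 93 lower (24.8%) and 51 higher (13.6%) of 375, with 60 lower without H63 and 59 without H96. Zfp367 rose by 1.43 from 30.2 to 81.5 CPM and Zfp820 fell by 0.70. Clock genes were higher in 10 and lower in 2 of 23 (4 lower with the block for mouse in all libraries), with Bhlhe41 (0.98) and Per1 (0.75) up and Tef (-0.20) and Npas2 (-0.33) down. The Npas2 call was lost without H62. Among SRSF and HNRNP splicing factors 14 of 30 were higher and 3 lower, all within 0.42 of zero, and 9 were higher without H62. Hoxd1 (ENSMUSG00000042448.6), a homeobox gene of nociceptors, had 33.5, 25.4, 27.5, 27.3 and 26.0 CPM contralaterally and 15.1, 13.5, 15.9, 12.3 and 13.7 CPM ipsilaterally, a log2 fold change of -0.99 (SE 0.10, adjusted p = 1.03e-07). H62 was highest contralaterally and the groups did not overlap. Isl2 fell by 0.51 and Isl1 by 0.37. Grhl3, a grainyhead factor known from epithelia, fell by 0.96.

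Cytoskeletal genes changed by member. Of 17 tubulins 4 were higher and 3 lower, with Tubb6 up by 1.66 from 14.5 to 46.1 CPM and Tubb2b by 0.27. Of 13 intermediate filament genes 4 were higher, among them Vim (0.52) and Gfap (2.38), the filament of reactive glia, and with the block for mouse in all libraries 2 were lower. Gfap had 0.856, 0.820, 1.00, 2.94 and 0.736 CPM contralaterally and 5.52, 5.04, 3.24, 13.7 and 6.23 CPM ipsilaterally, with H96 far above the others on both sides. Kinesins and dyneins were higher in 7 (11.1%) and lower in 11 (17.5%) of 63, both near the shares of all genes, with the lower count at 7 without H63, 6 without H96 and 5 without H97. Kif22 rose by 1.49 and Kif26b fell by 0.58. Map6, a microtubule-stabilising protein, rose by 0.54 from 334 ± 18.1 to 485 ± 3.22 CPM (SD, n = 5). Protocadherins, adhesion proteins that give neurons their surface identity, were lower in 13 (18.8%, near the share of all genes) and higher in 4 (5.8%) of 69, with Pcdh18 down by 0.76. The lower count was 8 without H97, and the higher count was 1 without H62, H63 or H96.

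Of 108 survival, damage, cell cycle and interferon response genes 28 were higher and 8 lower. Of 36 BCL2 family, caspase and p53 target genes 12 were higher and 7 lower. Gadd45a, a DNA damage and demethylation factor, rose by 3.0 from 18.7 ± 1.55 to 150 ± 5.22 CPM (SD, n = 5), Pmaip1 (NOXA), a death-promoting BH3 protein, by 2.15, and Gadd45g by 1.84. Bcl2, which protects from apoptosis, fell by 0.38, as did Bid (-0.38), a death-promoting BH3 protein. Cell cycle genes were higher in 9 and lower in 1 of 34 (2 lower without H96), with Foxm1 up by 0.80 to 3.84 CPM. Interferon-stimulated and MHC class I genes were higher in 7 (18.4%) and lower in 0 of 38 by edgeR, with 4 higher without H63 or H97, and their median was below zero in H62 and H96. Lower members numbered 1 at an unadjusted p under 0.05, with limma-voom, under upper-quartile scaling and without H63. Oasl1 rose by 1.19 to 4.58 CPM.

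The usual axotomy list served as a reference and was chosen for this response: 21 of its 25 tested genes were higher and 0 lower, with log2 fold changes from -0.09 to 6.95 and a median of 1.77. None of the genes named here differed in its response between control and cKO mice at an adjusted p under 0.05 for the interaction of genotype and side, and the smallest such adjusted p was 0.485 in edgeR's test, which does not show that the responses were equal.

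The most counted genes in each size class show how far the small changes reach into abundant transcripts. In the smallest class of higher genes these were Rtn4, the growth inhibitor Nogo, which rose by 0.18, Ret, Anxa2, a calcium-dependent membrane protein (0.15), and Actb, actin (0.11). The Actb call was lost without H62 or H96. In the next class they were Dst, a cytoskeletal linker (0.27), Sqstm1, Cyfip2, of the WAVE actin complex (0.26), and Akap6, a kinase anchor (0.45). The Dst call was lost without H62, H63 or H96, and under upper-quartile scaling and without a filter. On the lower side they were Phf24 (-0.25), Kcnab2 (-0.16), a potassium channel subunit, Pirt (-0.20), a regulator of TRP channels, and Scn10a in the smallest class, and Dgkh, a diacylglycerol kinase (-0.30), Trarg1 (-0.33), Nipal3 (-0.36) and Tmem233 (-0.27) in the next. Lrrn1 (-0.61), Rasgrp1, a Ras activator (-0.62), Gfra2 and Isl2 led the class of 0.5 to 1. In the class of 1 to 2 the 4 lower genes were Angptl7 (-1.11), Vstm2b (-1.09), Scx (-1.07), the tendon factor scleraxis, and Nog. The others of the 14 lowest were Vwc2l, a secreted protein with von Willebrand C domains (-0.98), Siah3 (-0.94), St6gal2, a sialyltransferase (-0.92), and Chrna6, Hoxd1, Grhl3, Prokr1, Oprl1, Bmp15 and Oprd1, which are given above.

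The makeup of the libraries was read from 10 marker lists. Defining markers of sensory neurons were present in all libraries, with a summed level of 10300 to 11600 CPM contralaterally and 9960 to 10800 CPM ipsilaterally. Of 22 neuron markers 9 were lower and 0 higher by edgeR, with a median of -0.11. At an unadjusted p under 0.05, 2 were higher, DESeq2 called 1 higher and edgeR 2 without H97, and 4 to 5 were lower without H63, H96 or H97. Satellite glia markers were higher in 3 and lower in 1 of 9 (1950 to 2140 against 2190 to 2470 CPM), with Glul, glutamine synthetase, up by 0.46 and Cadm2 down by 0.41. Of 12 Schwann cell and myelin markers 0 were called by edgeR, DESeq2 or limma-voom, and 0 had an unadjusted p under 0.05. Macrophage markers had 1 of 15 higher, Mrc1 (0.79), with a median of 0.41 and sums of 141 to 261 against 163 to 308 CPM, and 3 were higher with the block for mouse in all libraries. The Mrc1 call was lost without H62, H63, H96 or H97. Neutrophil (48.6 to 169 against 48.7 to 228 CPM), lymphocyte (4.1 to 17.2 against 5.55 to 10.8 CPM), erythroid (316 to 747 against 325 to 636 CPM) and muscle (12.1 to 502 against 8.64 to 800 CPM) lists had 0 members called by edgeR, and with all 5 mice their sums overlapped between sides. Without H62 the neutrophil sums did not overlap (48.6 to 63.4 against 76.3 to 228 CPM), their median went from 0.61 to 1.40, and edgeR called 1 neutrophil marker higher. Without H96 the neutrophil median was 0.21. The muscle median had no stable sign: it was 0.38 with all mice, 1.48 without H62, -0.65 without H65, -0.07 with the block for mouse in all libraries and -0.51 with limma-voom. At an unadjusted p under 0.05 there was 1 neutrophil marker, higher, and 0 markers of the other 3 lists. DESeq2, limma-voom and the fit with the block for mouse in all libraries each called 1 neutrophil marker higher. Of 12 fibroblast and tendon markers 1 was lower, Scx, and 0 higher by edgeR, with a median of 0.34 (0.52 without H62 and 0.21 without H96) and sums of 829 to 1410 against 956 to 1550 CPM. At an unadjusted p under 0.05, 2 were higher. DESeq2 called 2 higher, limma-voom 1 and edgeR 1 without H65, and 3 were higher in the control libraries alone, with or without the block for mouse. Endothelial and pericyte markers were higher in 4 of 11, with Emcn up by 0.43. With the block for mouse in all libraries and with limma-voom 7 were higher, with DESeq2 6, and without H96 or H97 0, where the Emcn call was lost. Their sums were 314 to 435 against 374 to 437 CPM, and without H62 314 to 368 against 374 to 437 CPM, with no overlap. The part of these cells in the gene groups above was not tested.

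**Figure D5:**
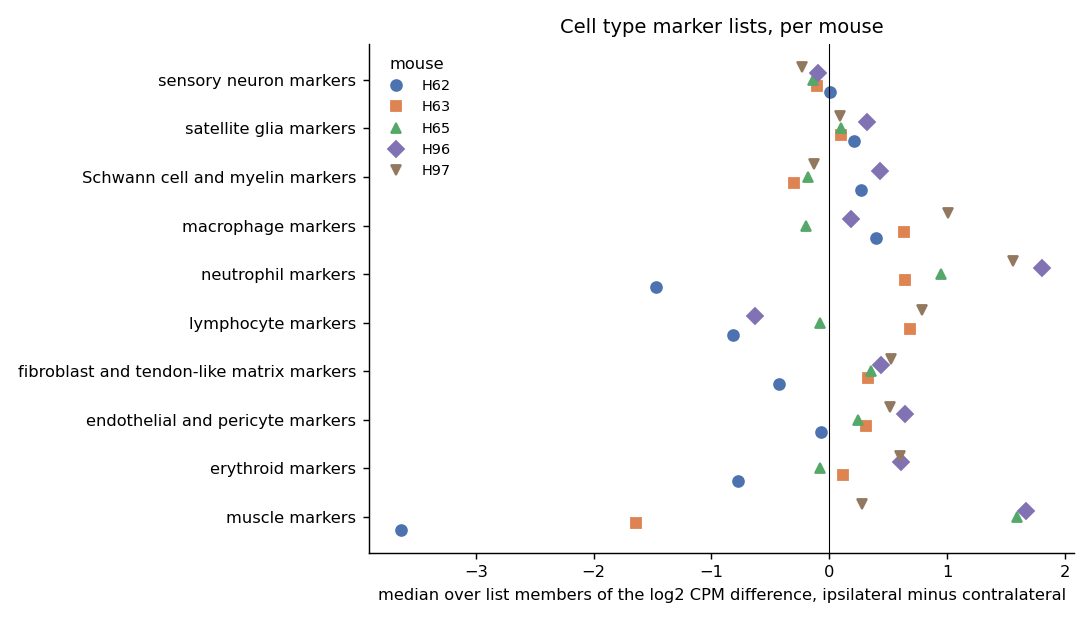
Each row is a marker list and each symbol a mouse, placed at the median over the list of the log2 CPM difference, ipsilateral minus contralateral (horizontal axis). Mouse H62 lies below zero for muscle (-3.64), neutrophil (-1.47), lymphocyte (-0.82), erythroid (-0.77), fibroblast (-0.42) and endothelial (-0.07) markers. Other mice lie below zero in some lists as well, among them H63 for muscle (-1.64) and H96 for lymphocyte markers (-0.63), while the 5 mice lie within a narrow band for neuron and satellite glia markers.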

How the data were processed

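Poly(A) RNA of lumbar ganglia was sequenced as stranded libraries with paired 150 bp reads, per the labels' protocols. The deposited table gives whole-number exonic counts per gene, not normalized, 1 column per library, per the file headers. FPKM values were also deposited by the authors, from the same libraries: in 21541 genes each value equalled CPM divided by 1 length per gene (tolerance 1%), which for 93% of 18805 matched genes equalled the gene's full span (tolerance 5%), so FPKM served only as alternatives within genes. The submitters' processing notes name HISAT2, Picard and the builds mm10 and mm39, without roles. The counting program, annotation release and strand setting are not given in the sources used here, so reads of overlapping genes may be mixed. Of 78258 Ensembl identifiers, 51487 (98.1% of the counts) had a symbol in GENCODE M21.

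Counts of all 20 libraries were fitted in R 4.3.3 with edgeR 4.0.16 (TMM, robust quasi-likelihood, a mean per group). filterByExpr (minimum count 10, minimum total 15) left 28564 of 56837 genes with any count. The contrast was the 5 ipsilateral against the 5 contralateral control libraries. P-values cover the spread between mice, and libraries of a group varied beyond counting error. On simulated counts of 27873 genes for this comparison, 16%, 52%, 98% and 100% of genes changed by a log2 of 0.25, 0.5, 1 and 2 were recovered, with 3 false calls. Only 50 genes were changed at each size, all with a contralateral mean of at least 1 CPM, and the spread followed the trend over abundance. With so few changed genes the adjusted threshold is stricter than in the data, so these shares are not the recovery of the main fit.

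Gene lists (46 of functions, 10 of cell type markers) are described by counts and medians, without a set test. The members, lists and rules were chosen with earlier results of these data known. Genes were named from called genes with the same sign in 5 mice, at least 5 CPM in the higher group, no predicted name and no place on the axotomy list: the 14 highest and 14 lowest, and the 4 most counted per size class and direction. From each list the 3 highest and 3 lowest called members with at least 1 CPM were eligible.

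The contralateral and ipsilateral libraries of a number come from the same mouse, per the labels. The correlation across genes of their deviations from the group means was -0.0546 for H62 and 0.107 to 0.257 for the other control mice. The libraries are paired, but the main fit had no block for mouse, and the fit with mouse as a replicate block was an alternative. Other alternatives were RLE and upper-quartile scaling, no filter, a mean of at least 1 CPM, the control libraries alone, DESeq2 1.42.0, limma-voom (limma 3.58.1) with mouse as a random effect, limma on log2 FPKM (pseudocounts 1 and 0.1), edgeR's test against a 2-fold change, and leaving out each mouse. Figures and lists were made in Python 3.11.15. Some genes and 1 list that the rules chose are not reported here.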

Additional observations from a re-analysis of the deposited data

Results flagged for a closer look

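In 400 groups of 5 values (172 genes on each side, and the list medians per mouse), 24 had a highest or lowest value whose gap to its neighbour took more than 0.71 of the range, Dixon's critical value for 5 samples. Chance gives about 1 in 20, or 20 of 400. Mouse H62 was the distant value in 9 of the 24, H96 in 6, H97 in 5, H65 in 4 and H63 in 0.

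In the contralateral group H62 stood away from the other 4 mice, with the share of the range in brackets, for Fst (0.826), Mmp17 (0.868), Efna3 (0.773), Prokr1 (0.765), Nog (0.752), Hoxd1 (0.735) and Col6a5 (0.726). Hoxd1 was higher there (33.5 CPM against 25.4 to 27.5 CPM) and Nog lower (7.65 CPM against 10.2 to 11 CPM). On the same side H96 stood away for Gfap (0.878), Pfkm (0.743) and Csf1 (0.739), and H65 for Npy (0.751), Trib3 (0.73) and Trpv2 (0.721).

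In the ipsilateral group the distant value was that of H97 for Hspb1 (0.923), Adcyap1 (0.724) and Eif3b (0.711), that of H96 for Cd44 (0.755), Adm2 (0.754) and Gfap (0.713), that of H62 for Kcnmb4 (0.774), and that of H65 for Kif22 (0.767). Hspb1 was lower in H97, at 264 CPM against 287 to 289 CPM. Gfap was higher in H96 on both sides.

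Of the list medians per mouse, H97 stood away for BCL2 family, caspase and p53 target genes (0.898) and for tubulins (0.749), and H62 for fibroblast and tendon markers (0.789). In the last list H62 lay at -0.42 and the other 4 mice at 0.33 to 0.53.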

How the results depend on the processing

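Leaving out each mouse in turn gave 6832 to 7704 called genes (3536 to 3680 higher, 3234 to 4168 lower), and 770 to 876 of at least 2-fold (681 to 757 higher, 75 to 119 lower). With mouse as a replicate block in the fit of all libraries 8559 genes were called, 7946 of them shared with the 8540 of the fit without it, and with the block in the control libraries alone 8907. Among the 269 genes open to naming, the block in all libraries ended 3 calls (Pcdhb18, Eif2d and Sdhd, none of them used above), and 0 turned direction under any alternative. The called total lay between 7176 (no filter) and 9270 (limma-voom) over the alternatives with all mice. The share of higher genes among calls was 46.3%, and ran from 39.7% under upper-quartile scaling to 53.2% without H97. From 800 (697 higher, 103 lower) the count of genes changed at least 2-fold went to 314 (305 and 9) at a mean of at least 1 CPM, 235 (229 and 6) on log2 FPKM with a pseudocount of 0.1, and 68 (68 and 0) with a pseudocount of 1. The FPKM fits also changed the test and the scaling, and only the last step changed the pseudocount alone. The edgeR test against a 2-fold change called 311 (311 and 0). Of 5194 recomputed values, 5008 kept their direction and side of the threshold (single genes) or stayed close (list medians), 140 lost the call and 46 moved. Reversal was scored for single genes only, and 0 reversed. A change of sign in a list median was not counted as such. Some medians did change sign, as that of the clock genes, from 0.017 with all mice to -0.052 without H97. Changes of a log2 of 0.25 were recovered in 16% of simulated cases, where far fewer genes changed than in the data. Small changes that were not called are not shown to be absent.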

Other observations

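Some of the largest changes lay under the 5 CPM used for naming, and the genes here were chosen after their values were seen. Of the genes called higher, 16 had 0 counts in all 5 contralateral libraries. Krt6a and Krt16, keratins known from stressed epidermis, had 997 and 450 counts over the 5 ipsilateral libraries. They stood at 1.05 to 3.82 CPM and 0.848 to 1.25 CPM there. Set against a floor of 3 counts over the contralateral group, Krt6a was at least 367-fold higher and Krt16 at least 165-fold higher. Hmx3, a homeobox factor known from the inner ear, had 643 ipsilateral counts at 1.23 to 1.99 CPM, at least 236-fold higher. These floors cover counting error only. All 3 genes were present in each of the 5 ipsilateral libraries. They passed the low-count filter without a count in the contralateral control libraries. Their test therefore gives no separate support, and its p-values are left out.

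Fgf15, an endocrine FGF of the intestine, rose from at most 0.0249 CPM to between 0.569 and 1.34 CPM, and Adm2, a peptide of the calcitonin family, from at most 0.0846 CPM to between 3.77 and 5.69 CPM. The groups did not overlap for either gene. Both were chosen by these values and passed the low-count filter through libraries with higher counts, so the lack of overlap gives no separate support.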
